A study of Mus musculus with 9 samples.

Results

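Transcripts of 9 receptors that guide leukocyte migration were examined in interferon-treated mouse macrophages. They are the chemokine receptors Cxcr4, Ccr1, Ccr2, Ccrl2 and Cx3cr1, and the chemoattractant receptors Cmklr1, C5ar1, C3ar1 and Fpr2. They were chosen by symbol from a table of 29763 named genes, all 9 symbols were found, and all 9 passed the filter on low values. The cells were bone marrow-derived macrophages, differentiated from primary marrow for 7 days in medium with 30% L929 supernatant. That supernatant is a source of macrophage colony-stimulating factor. The genotypes were Ndufa4l3_miR147KO (here the Ndufa4l3-miR147 knockout, also called Nmes1-deficient, named in the labels as Ndufa4l3-miR-147−/−), Ndufa4KO (the Ndufa4 knockout, Ndufa4−/−) and wild type, with 3 libraries each. Cells of every genotype, wild type included, received interferon-gamma at 40 ng/ml for 12 h, so no library is unstimulated. The study concerns mitochondrial complex IV: Ndufa4 is a protein associated with it, and Ndufa4l3 encodes a related small protein.

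The labels call the replicates technical and do not give the number of mice, their age or their substrain. The p-values therefore measure variation among libraries that may be technical only, and an effect of a deletion cannot be told apart from other differences between the cells of each genotype. Values are TPM, a transcript abundance corrected for transcript length and scaled to a fixed total, so levels of different genes can be compared. Depth is unknown, because TPM keep no read counts.

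Chemokine receptors are G protein-coupled receptors that turn a gradient of a small secreted protein into directed movement, mostly through inhibitory G proteins. Monocytes use Ccr2 to leave the marrow and enter inflamed tissue, and Cxcr4 holds myeloid cells in the marrow through its ligand Cxcl12. The receptors for the complement fragments C3a and C5a, for chemerin and for formyl peptides respond to attractants that are not chemokines. Ccrl2 is an atypical receptor that binds chemerin and presents it to other cells rather than signalling.

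The libraries of both the Ndufa4l3-miR147 knockout and wild type lay close together, while Ndufa4 knockout replicate 3 stood apart. Its upper quartile was 7.79 TPM, against 9.24 to 9.84 TPM in the other 8 libraries. The targeted gene Ndufa4l3 (listed as AA467197) was at 2.21 to 4.50 TPM in its knockout, at 472 to 527 TPM in the Ndufa4 knockout and at 355 to 365 TPM in wild type. Ndufa4 was listed at 0 TPM in each Ndufa4 knockout library and at 0, 0.303 and 0 TPM in the wild-type libraries, so it does not check that label. All 8 macrophage markers were expressed: F4/80 (Emr1), for example, was at 387 to 405 TPM in the Ndufa4l3-miR147 knockout, 387 to 436 TPM in the Ndufa4 knockout and 405 to 410 TPM in wild type. In the Ndufa4 knockout against wild type 1 of these 8 was called higher and 1 lower, against 2.83% and 5.76% of all genes. Lyz2 (lysozyme) was at 5223 to 5675 TPM in the Ndufa4 knockout, 4041 to 4172 TPM in the Ndufa4l3-miR147 knockout and 4509 to 4660 TPM in wild type, so it rose by 0.24 ± 0.04 in the Ndufa4 knockout (limma adjusted p = 0.0112). That call was lost with quantile normalization and without wild-type replicate 1 or 2 (adjusted p up to 0.289). Between the knockouts Lyz2 was lower in the Ndufa4l3-miR147 knockout, at -0.40 ± 0.04 (limma adjusted p = 0.00171), in all 16 alternatives. Mertk fell by 0.51 ± 0.13 in the Ndufa4 knockout (limma adjusted p = 0.0487), a call kept in 5 of 16 alternatives and lost without any 1 wild-type or Ndufa4l3-miR147 knockout library. The 6 markers of T and NK cells, the 5 of B cells and the 5 of mast cells and basophils were each under 1 TPM in every library. Of 5 fibroblast and stroma markers, 4 passed the filter and 0 were called. They summed to 6.16 to 130 TPM in the Ndufa4 knockout, 36.6 to 45.0 TPM in the Ndufa4l3-miR147 knockout and 7.09 to 44.3 TPM in wild type. Among them, Col3a1 was at 29.3, 2.12 and 116 TPM in Ndufa4 knockout replicates 1 to 3.

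The stretch of 250 bases before the RefSeq start site is shown for 3 receptors, since the results turn on Cxcr4 and Ccr1 and C3ar1 is the most abundant of the 9. The sequences are RefSeq's on GRCm38.p6, each on the minus strand and read 5′ to 3′ toward the gene. Capitals mark matches, on either strand, to the GC box GGGCGG, the hypoxia response cores ACGTG and GCGTG, and the TATA box TATAAA.
Cxcr4: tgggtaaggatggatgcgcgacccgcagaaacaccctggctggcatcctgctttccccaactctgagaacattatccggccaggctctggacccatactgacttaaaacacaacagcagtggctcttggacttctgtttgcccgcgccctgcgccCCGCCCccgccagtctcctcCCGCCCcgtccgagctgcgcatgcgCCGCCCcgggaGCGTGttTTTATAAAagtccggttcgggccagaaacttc
Ccr1: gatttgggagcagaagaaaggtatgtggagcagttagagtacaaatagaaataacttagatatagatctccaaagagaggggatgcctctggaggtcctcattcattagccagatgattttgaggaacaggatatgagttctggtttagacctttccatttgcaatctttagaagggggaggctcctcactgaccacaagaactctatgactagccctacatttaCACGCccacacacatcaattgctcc
C3ar1: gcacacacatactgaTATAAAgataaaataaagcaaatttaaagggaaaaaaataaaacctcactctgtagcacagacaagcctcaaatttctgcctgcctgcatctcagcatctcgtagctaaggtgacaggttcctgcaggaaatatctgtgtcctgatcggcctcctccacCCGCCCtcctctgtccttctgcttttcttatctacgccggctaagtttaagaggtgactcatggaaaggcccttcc
They lie at chr1:128592300-128592549, chr9:123968693-123968942 and chr6:122856158-122856407.

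The Cxcr4 stretch held 3 GC boxes on the opposite strand, which read CCGCCC in the line above, and 1 GCGTG on the strand shown. Its TATA box was matched on both strands, where 2 overlapping matches share letters. Its G and C content was 61.2%, against 43.6% for Ccr1 and 45.6% for C3ar1 and a median of 52.4% over all 32851 promoters of the table. Among all promoters cut to the same length, 32.7% held GGGCGG, 28.2% GCGTG, 16.6% ACGTG and 12.4% TATAAA. The Ccr1 stretch had a single marked match, GCGTG on the opposite strand. The C3ar1 stretch had 1 GC box on the opposite strand, 1 TATAAA far from the start and 1 AP-1 match (TGANTCA), a motif found in 6.75% of promoters. The interferon-gamma motif GAS (TTCNNNGAA, in 7.02% of promoters) was not matched in these 3 stretches. Of the 9 receptors, Fpr2 alone had a GAS match. GAS and AP-1 read the same on both strands, and both strands were searched for the other motifs. A match is a description of the letters and not a shown binding site.

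Receptors for complement fragments dominated the group. C3ar1 and C5ar1 together made up 84.4% to 85.2% of the summed TPM of the 9 receptors in the Ndufa4l3-miR147 knockout, 83.0% to 84.9% in the Ndufa4 knockout and 81.9% to 82.1% in wild type. The sum itself was 518 to 532 TPM in the Ndufa4l3-miR147 knockout, 435 to 526 TPM in the Ndufa4 knockout and 467 to 478 TPM in wild type. Mean levels in the Ndufa4l3-miR147 knockout ran, from high to low, C3ar1, C5ar1, Ccr1, Cxcr4, Ccrl2, Ccr2, Cmklr1, Cx3cr1 and Fpr2. Of the neighbours in that order, only Ccrl2 and Ccr2 had overlapping libraries. Cmklr1 stood above Ccrl2 in the Ndufa4 knockout, and the libraries of Cxcr4, Ccr2, Cmklr1 and Ccrl2 overlapped from each to the next. Wild type had Ccr2 above Ccrl2, and only Ccrl2 and Cmklr1 overlapped.

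**Figure D1:**
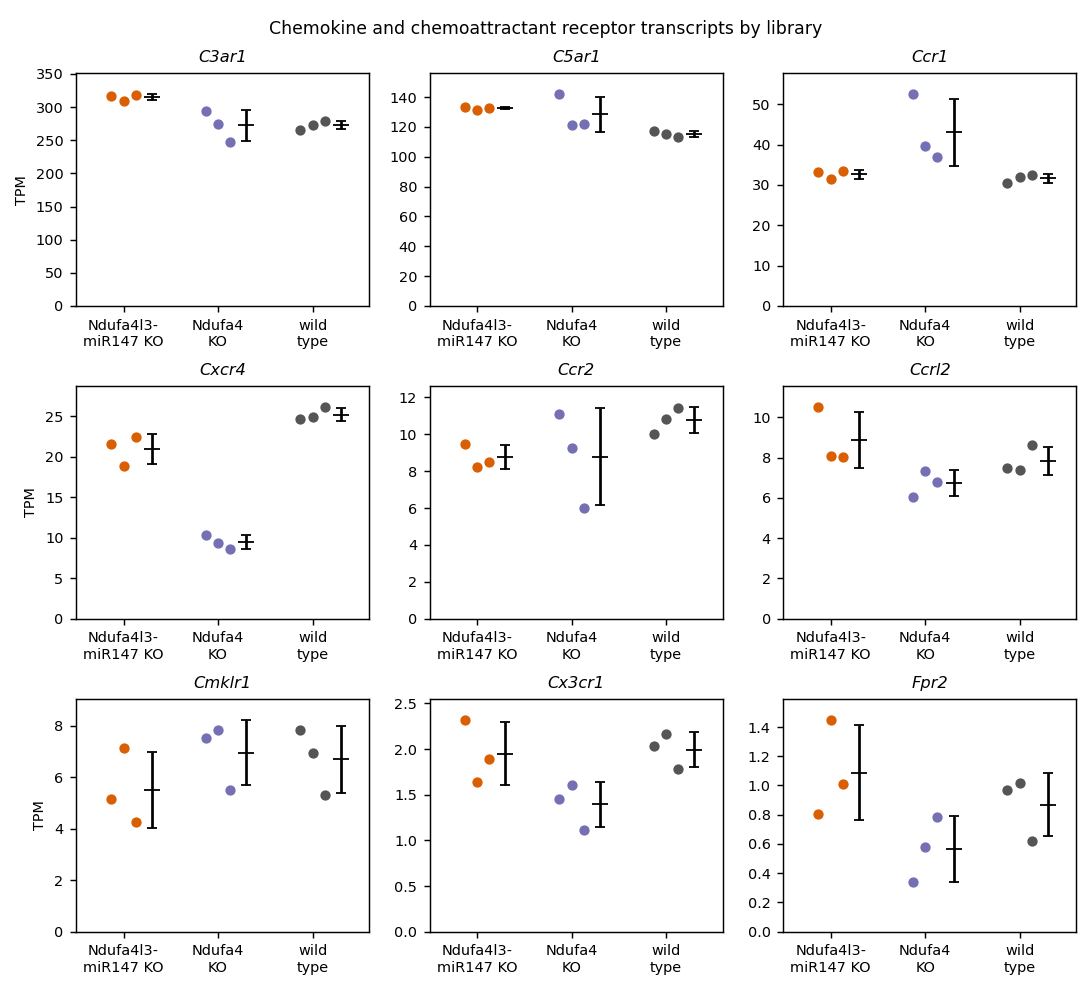
TPM of each receptor (vertical axes from 0, each panel with its own scale) in the 3 libraries of each genotype (points), with mean and SD beside them (bars). Cxcr4 lay at 8.66 to 10.3 TPM in the Ndufa4 knockout, below every library of the other genotypes, and C3ar1 and C5ar1 were highest in level.

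The chemokine receptor Cxcr4 was much lower in the Ndufa4 knockout, and no other member of the group passed the test there. Cxcr4, the receptor for Cxcl12, was at 10.3, 9.34 and 8.66 TPM in Ndufa4 knockout replicates 1 to 3, against 24.6, 24.9 and 26.1 TPM in wild-type replicates 1 to 3. All 3 knockout libraries were far below all 3 wild-type libraries, and the spread within either genotype was under 2 TPM from lowest to highest. The mean was 9.45 ± 0.845 TPM in the knockout and 25.2 ± 0.793 TPM in wild type (SD, n = 3 each). The log2 fold change on the log2(TPM + 1) scale was -1.33 ± 0.09 (SE), with a 95% interval of -1.53 to -1.13 (limma with Benjamini-Hochberg adjustment over all genes, adjusted p = 3.31e-04). Here 1 of 9 receptors was called lower and 0 higher at an adjusted p under 0.05. Of all 11133 genes tested 8.59% were called, 5.76% lower and 2.83% higher. The call held in all 16 alternative settings, with fold changes of -1.41 to -1.21 and adjusted p of 1.89e-04 to 0.00499. Without Ndufa4 knockout replicate 3, the library that stands apart, it was -1.27.

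In bulk RNA, fewer cells of a type and less RNA per cell cannot be told apart. Immature neutrophils also carry Cxcr4, and the 10 neutrophil markers summed to 40.0, 31.3 and 3.29 TPM in Ndufa4 knockout replicates 1 to 3, against 5.60, 55.8 and 81.6 TPM in wild-type replicates 1 to 3. The ranges overlapped. Within the Ndufa4 knockout and within wild type, the libraries had the same order in these sums as in Cxcr4. The order differed within the Ndufa4l3-miR147 knockout. There the sums were 74.4, 39.3 and 41.6 TPM in replicates 1 to 3, and Cxcr4 was at 21.5, 18.9 and 22.4 TPM. No neutrophil marker was at 0 in all libraries, 4 of the 10 were under 1 TPM throughout and 6 of 10 passed the filter. The defining marker Ly6g was listed at 0 TPM in every Ndufa4 knockout library, and at 0, 0.515 and 0.279 TPM in wild type. The 6 monocyte markers summed to 42.9 to 54.6 TPM in the Ndufa4 knockout and 53.9 to 61.3 TPM in wild type, and 3 of the 6 stayed under 1 TPM. Most of that sum was Plac8, at 52.3, 44.2 and 41.9 TPM in Ndufa4 knockout replicates 1 to 3 and 52.3 to 57.5 TPM in wild type. Plac8 was not called (-0.24 ± 0.09, limma adjusted p = 0.117). The part of neutrophils and monocytes in the Cxcr4 difference was not tested. The ligand Cxcl12 was itself at 0.468 to 0.639 TPM in the Ndufa4 knockout and at 0.527 to 0.594 TPM in wild type, too low to pass the filter.

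The Ndufa4l3-miR147 knockout took an intermediate position for Cxcr4. Its libraries were at 21.5, 18.9 and 22.4 TPM, below the 24.6 to 26.1 TPM of wild type without overlap. The difference of -0.26 ± 0.09 had a 95% interval of -0.46 to -0.06 but did not pass over all genes (limma unadjusted p = 0.0161, adjusted p = 0.413). The mean was 20.9 ± 1.83 TPM in this knockout against 9.45 ± 0.845 TPM in the Ndufa4 knockout, a difference of 1.07 ± 0.09 with a 95% interval of 0.87 to 1.27 (limma adjusted p = 6.76e-04). This call between the knockouts held in each of the 16 alternatives, with limma adjusted p of 3.77e-04 to 0.0176.

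**Figure D2:**
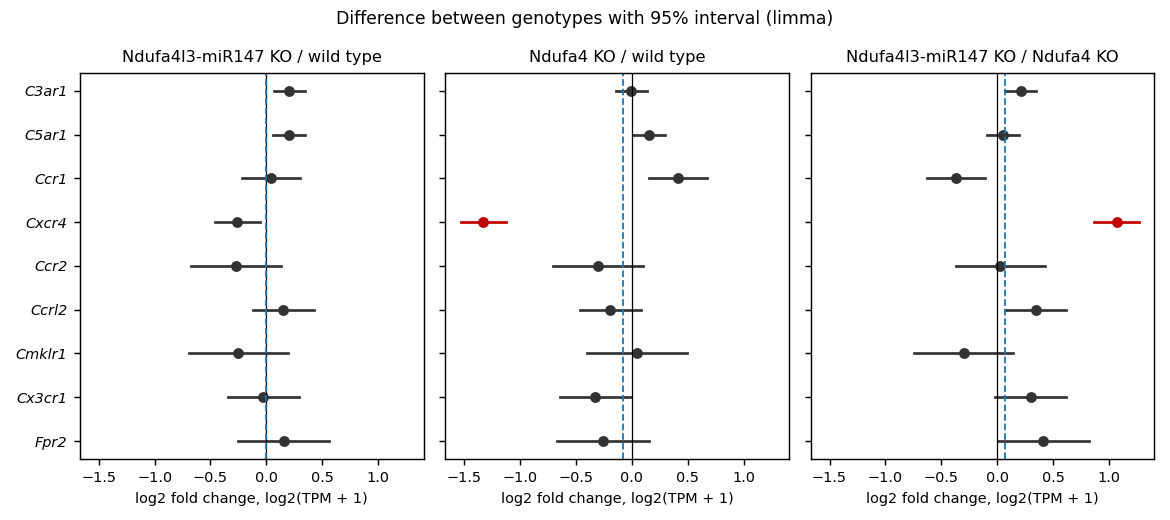
Log2 fold change of each receptor with its 95% interval from limma (horizontal axis, log2(TPM + 1) scale) in the 3 comparisons, red where the adjusted p over all genes was under 0.05, with the median of all genes as a dashed line. Cxcr4 was the only receptor called, at -1.33 in the Ndufa4 knockout against wild type and at 1.07 between the knockouts.

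Cxcr4 (ENSMUSG00000045382.6, protein coding) lies on chromosome 1 at 128588199 to 128592293 on the minus strand of GRCm38, in the GENCODE M21 annotation. Of 37 tested genes within 5 Mb, 4 were called lower and 0 higher in the Ndufa4 knockout against wild type. That is 10.8% of them called lower, against 5.76% of all genes, with a median fold change of -0.14 against -0.08 over all genes. Such a share was not particular to Cxcr4. Within 5 Mb of the other receptors the share called ran from 2.56% (Ccr2 and Fpr2) to 16.2% (C3ar1), against 8.59% of all genes. Around C3ar1, itself not called, 9 of 80 were lower and 4 higher. Ctse (cathepsin E), 3.05 Mb from Cxcr4, was at 5.49 to 8.22 TPM in the Ndufa4 knockout and 64.4 to 65.6 TPM in wild type. Its log2 fold change was -3.02 ± 0.12 (limma adjusted p = 1.07e-05). The calls of Ctse and Dyrk3 held in all 16 alternatives. Dyrk3, a kinase, fell by 0.66 ± 0.11 (limma adjusted p = 0.00866), and Il10, an anti-inflammatory cytokine, fell by 0.61 ± 0.12 (adjusted p = 0.0183). Ikbke, a kinase of innate signalling, fell by 0.31 ± 0.08 (adjusted p = 0.0482). Il10 lost its call with quantile normalization and without wild-type replicate 1 or 3, with adjusted p of up to 0.0728. Ikbke was called in 2 of 16 alternatives and lost its call with both other scalings. It kept it in 1 of the 9 fits that leave out a library, the fit that drops Ndufa4 knockout replicate 2. Dars, the nearest tested gene on the side of lower coordinates, was not called at 0.16 ± 0.09 (limma adjusted p = 0.273). Against wild type, Ctse rose in the Ndufa4l3-miR147 knockout by 1.25 ± 0.12 (limma adjusted p = 0.00267) and was the single called gene of the same 37, or 2.7% called higher against 0.243% of all genes. Between the knockouts 4 of the 37 were called as higher for the Ndufa4l3-miR147 knockout and 0 as lower, or 10.8% against 2.2% of all genes called higher. These were Ctse (4.27 ± 0.12), Dyrk3 (0.72 ± 0.11), Fam72a (0.53 ± 0.09) and Zranb3 (0.44 ± 0.10), with limma adjusted p of 2.41e-07 to 0.0491. The call of Ctse held in all 16 alternatives, that of Dyrk3 in 13, that of Fam72a in 11 and that of Zranb3 in 3. Fam72a lost its call on leaving out any Ndufa4l3-miR147 knockout library, and Dyrk3 on leaving out its replicate 1 or 2. Zranb3 kept its call in 2 of the 9 fits that leave out a library, those that drop Ndufa4 knockout replicate 1 or 3.

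**Figure D3:**
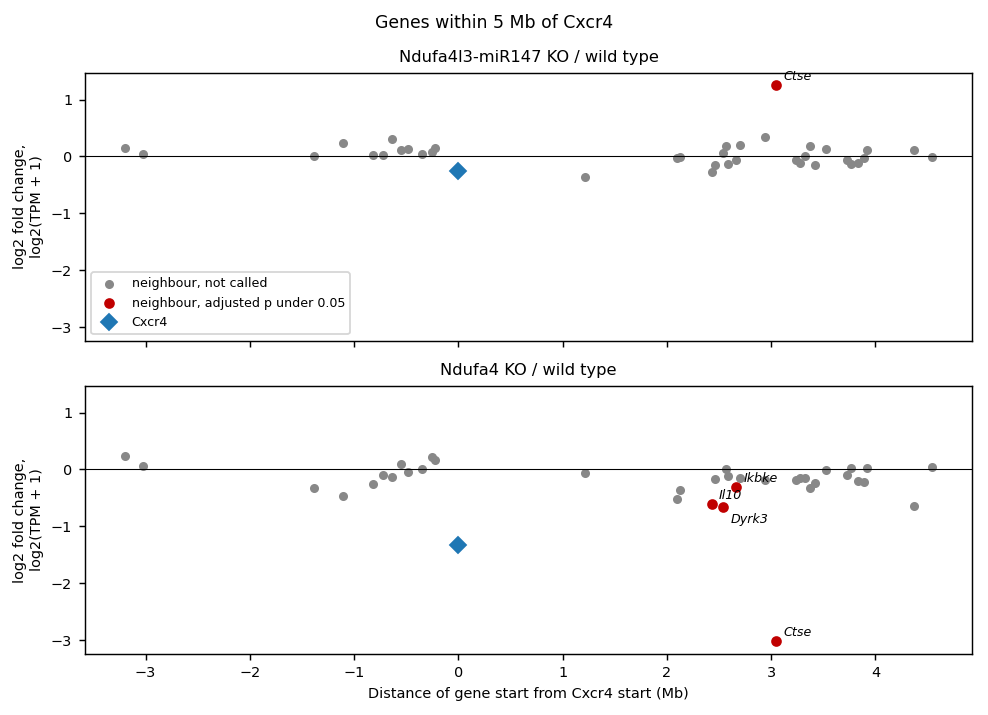
Log2 fold change (vertical axes, log2(TPM + 1) scale) of the 37 tested genes within 5 Mb of Cxcr4 against the distance of their starts from its start (Mb), for each knockout against wild type. The 4 called genes in the Ndufa4 knockout, Il10, Dyrk3, Ikbke and Ctse, lay 2.43 to 3.05 Mb from Cxcr4 (blue), and Ctse alone was called in the Ndufa4l3-miR147 knockout.

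Among 8801 genes with a mean of at least 5 TPM, the profiles nearest to that of Cxcr4 over the 9 libraries were those of Rapsn, Gbp11 and Gm21748. Likeness was the root mean square difference of log2(TPM + 1) after centring each gene, and was 0.13, 0.14 and 0.18. Rapsn, a scaffold of the nerve-muscle synapse on chromosome 2, averaged 4.39 TPM in the Ndufa4 knockout and 10.7 TPM in wild type. Gbp11, a guanylate-binding protein gene on chromosome 5 annotated as a polymorphic pseudogene, averaged 6.16 TPM in the Ndufa4 knockout and 14.6 TPM in wild type. Gm21748, a gene model on chromosome Y, averaged 49.2 TPM in the Ndufa4 knockout and 125 TPM in wild type. None of these lies on the chromosome of Cxcr4.

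Ccr1, a receptor for Ccl3, Ccl5, Ccl7 and Ccl9, went the other way in the Ndufa4 knockout but missed the threshold. It was at 52.4, 39.7 and 36.8 TPM in Ndufa4 knockout replicates 1 to 3, against 30.4, 32.0 and 32.5 TPM in wild type. Every knockout library was above every wild-type library, with replicate 1 well above the other two. The mean was 43.0 ± 8.30 TPM in the knockout and 31.6 ± 1.07 TPM in wild type (SD, n = 3 each), a difference of 0.42 ± 0.11 with a 95% interval of 0.16 to 0.67 (limma unadjusted p = 0.00553, adjusted p = 0.0571). It was called in 4 of 16 alternatives. These were median-of-ratios scaling (0.49, adjusted p = 0.0219), quantile normalization (0.49, adjusted p = 0.0215), the fit without Ndufa4 knockout replicate 1 (0.27, adjusted p = 0.0404) and the fit without its replicate 3 (0.52, adjusted p = 0.0147). In the Ndufa4l3-miR147 knockout Ccr1 was at 33.3, 31.4 and 33.4 TPM, which overlapped wild type (0.05 ± 0.11, 95% interval -0.21 to 0.30). Between the knockouts its difference was -0.37 ± 0.11 (limma adjusted p = 0.128), called only without Ndufa4 knockout replicate 3 (adjusted p = 0.0326) among the 16 alternatives.

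The ratio of Ccr1 to Cxcr4 within a library does not depend on the scaling of that library. It was 4.25 to 5.07 in the Ndufa4 knockout, 1.49 to 1.67 in the Ndufa4l3-miR147 knockout and 1.24 to 1.29 in wild type. The 3 ranges did not overlap. Every Ndufa4 knockout library had Ccr1 above and Cxcr4 below all libraries of the other genotypes. Its ratio therefore had to lie apart and is no separate result. The 7 markers of dendritic cells summed to 40.9 to 76.7 TPM in the Ndufa4 knockout and 27.9 to 29.8 TPM in wild type, where 2 of the 7 passed the filter and 1, Clec9a, was called. Most of that sum was Clec9a, at 73.4, 53.5 and 38.7 TPM in Ndufa4 knockout replicates 1 to 3 and 25.3 to 27.7 TPM in wild type. Clec9a rose by 0.98, a call lost without any 1 wild-type library (limma adjusted p = 0.0166, and up to 0.0723 in the alternatives). The defining markers Flt3 and Zbtb46 were under 1 TPM in every library. The part of such cells in the Ccr1 difference was not tested.

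Ccr2, the receptor for Ccl2 and Ccl7 on inflammatory monocytes, was low in these cultures. It was at 11.1, 9.28 and 5.98 TPM in Ndufa4 knockout replicates 1 to 3, against 10.0, 10.8 and 11.4 TPM in wild type. The groups overlapped, and the lowest value belonged to Ndufa4 knockout replicate 3, the library that stands apart. The difference was -0.30 ± 0.18 (95% interval -0.70 to 0.10; limma adjusted p = 0.319), and -0.07 without that library. Ccr2 in the Ndufa4l3-miR147 knockout was at 9.49, 8.25 and 8.52 TPM, below every wild-type library, with a difference of -0.27 ± 0.18 that did not pass (95% interval -0.67 to 0.13; limma adjusted p = 0.839).

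Ccr1 and Ccr2 lie in a cluster of chemokine receptor genes on mouse chromosome 9 (Ccr1 at 123962124 to 123968692 on the minus strand, Ccr2 at 124101950 to 124113557 on the plus strand). Of the tested genes within 5 Mb of Ccr1, 0 of 41 were called higher and 2 lower in the Ndufa4 knockout against wild type, or 4.88% against 8.59% of all genes.

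The receptors for complement fragments stood above wild type in every library of the Ndufa4l3-miR147 knockout, by little and without passing over all genes. C3ar1, the receptor for C3a, was at 316, 309.8 and 318 TPM there, against 266, 273 and 278 TPM in wild type. The mean was 315 ± 4.44 TPM in the knockout and 273 ± 6.15 TPM in wild type (SD, n = 3 each), a difference of 0.21 ± 0.06 with a 95% interval of 0.07 to 0.35 (limma unadjusted p = 0.00856, adjusted p = 0.326). C5ar1, the receptor for C5a that drives neutrophil and macrophage recruitment, was at 133, 132 and 133 TPM there, against 117, 115 and 113 TPM in wild type. Its difference was 0.20 ± 0.06 with a 95% interval of 0.06 to 0.34 (limma unadjusted p = 0.0104, adjusted p = 0.351). By limma 0 of 9 receptors were called, against 0.431% of all genes. At an unadjusted p under 0.05 there were 3 of 9 receptors (C3ar1, C5ar1 and Cxcr4), against 8.24% of all genes, and libraries did not overlap for 4 of 9 (C3ar1 and C5ar1 higher, Cxcr4 and Ccr2 lower), against 23.9% of all genes.

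The side of the threshold on which both complement receptors fell depended on the libraries fitted. When the 6 libraries of these genotypes were fitted alone, both were called (limma adjusted p = 0.0133 for C3ar1 and 0.0153 for C5ar1). C3ar1 was also called without Ndufa4 knockout replicate 3 (adjusted p = 0.0338), a library outside this comparison. The 8 macrophage markers summed to 8878 to 9049 TPM in the Ndufa4l3-miR147 knockout and 9238 to 9373 TPM in wild type, and their part in the difference was not tested. C3ar1 in the Ndufa4 knockout was at 295, 275 and 247 TPM, on both sides of wild type, with a difference within 0.14 of 0 by its 95% interval (-0.14 to 0.13) and a sign that turned with the scaling. Between the knockouts C3ar1 differed by 0.21 ± 0.06 without overlap (limma adjusted p = 0.110), and of the alternatives the fit without Ndufa4 knockout replicate 1 called it (adjusted p = 0.0338). C5ar1 was at 142, 121 and 122 TPM in the Ndufa4 knockout, above every wild-type library (0.15 ± 0.06, limma adjusted p = 0.167). The decoy-like second C5a receptor C5ar2, the tested gene next to C5ar1, was at 2.45 to 3.77 TPM in the Ndufa4 knockout, 3.39 to 4.09 TPM in the Ndufa4l3-miR147 knockout and 2.73 to 3.42 TPM in wild type.

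The chemerin receptors did not pass in any comparison. Ccrl2 was at 10.5, 8.09 and 8.02 TPM in Ndufa4l3-miR147 knockout libraries, 6.06, 7.33 and 6.80 TPM in Ndufa4 knockout libraries and 7.50, 7.37 and 8.63 TPM in wild type. The widest gap was between both knockouts, which did not overlap (0.35 ± 0.12, 95% interval 0.07 to 0.62; limma adjusted p = 0.166). Cmklr1, which signals on chemerin, was at 5.16, 7.13 and 4.25 TPM in Ndufa4l3-miR147 knockout libraries, 7.50, 7.83 and 5.49 TPM in Ndufa4 knockout libraries and 7.84, 6.94 and 5.29 TPM in wild type. All 3 genotypes overlapped, and the spread within each was as wide as the gaps between them. Its 95% interval was -0.69 to 0.19 in the Ndufa4l3-miR147 knockout and -0.40 to 0.49 in the Ndufa4 knockout, each against wild type. Gpr1, another chemerin receptor, was under 0.1 TPM in every library.

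Cx3cr1 and Fpr2 were near the limit of what was kept. Cx3cr1, the receptor for the membrane-bound chemokine Cx3cl1 and a mark of patrolling monocytes and tissue macrophages, was at 1.46, 1.61 and 1.12 TPM in the Ndufa4 knockout, against 2.04, 2.17 and 1.78 TPM in wild type. All 3 knockout values were below all 3 wild-type values, but the difference of -0.33 ± 0.14 did not pass (95% interval -0.65 to -0.01; limma adjusted p = 0.181). Cx3cr1 in the Ndufa4l3-miR147 knockout was at 2.32, 1.64 and 1.90 TPM, on both sides of wild type. Fpr2, which binds formyl peptides, serum amyloid A and annexin A1, was at 0.808, 1.45 and 1.01 TPM in Ndufa4l3-miR147 knockout libraries, 0.337, 0.576 and 0.784 TPM in Ndufa4 knockout libraries and 0.968, 1.02 and 0.621 TPM in wild type. It reached 1 TPM in only 3 libraries, none of them of the Ndufa4 knockout, so it just passed the filter. The pseudocount of 1 TPM is of the size of these values and shrinks their fold changes. Transcripts of the paralog Fpr1 were under 1 TPM throughout, and Fpr3, Fpr-rs3, Fpr-rs4, Fpr-rs6 and Fpr-rs7 were listed at 0 in every library.

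Across the whole group, 1 of 9 receptors was called in the Ndufa4 knockout against wild type and 1 of 9 between the knockouts, where 3.24% of all genes were called (2.2% higher and 1.04% lower). Libraries did not overlap for 5 of 9 receptors in the Ndufa4 knockout against wild type, where that held for 31.1% of all genes. Of these, 2 were higher and 3 lower, against 9.4% and 21.7% of all genes. At an unadjusted p under 0.05 there were 4 of 9, against 26.1%. Between the knockouts libraries did not overlap for 6 of 9, against 25.3% of all genes, with 5 higher and 1 lower, against 18.3% and 6.98%. There 5 of 9 had an unadjusted p under 0.05, against 20.3% of all genes. Both counts between the knockouts include Fpr2 (limma unadjusted p = 0.0482), which passed the filter only through libraries outside the Ndufa4 knockout. The median fold change of the 9 was 0.05 in the Ndufa4l3-miR147 knockout against wild type (0.001 over all genes) and -0.19 in the Ndufa4 knockout against wild type (-0.08 over all genes). Between the knockouts it was 0.21 (0.07 over all genes). Both comparisons against wild type share their 3 wild-type libraries, so they are not independent of each other. Of all genes called in the Ndufa4 knockout against wild type, 32.9% were higher, and 52.4% with median-of-ratios scaling. Between the knockouts 67.9% were higher, and 49.7% with that scaling.

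**Figure D4:**
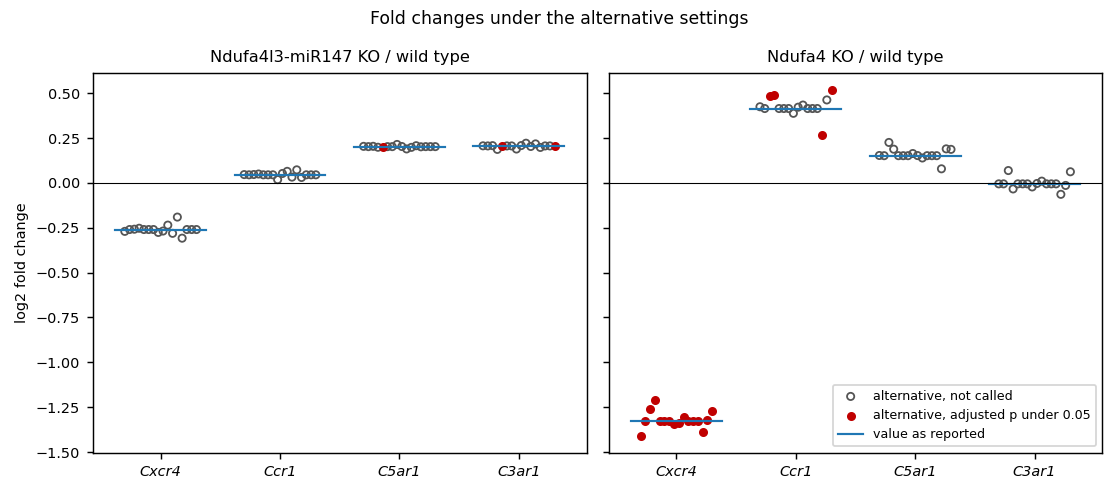
Log2 fold changes of Cxcr4, Ccr1, C5ar1 and C3ar1 for each knockout against wild type (vertical axis) as reported (blue line) and in each of 16 alternative settings (points, filled red where the adjusted p was under 0.05). In the Ndufa4 knockout all 16 points of Cxcr4 were called and 4 of 16 of Ccr1, while in the Ndufa4l3-miR147 knockout 2 of 16 of C3ar1 and 1 of 16 of C5ar1 were.

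Other receptors for attractants were set beside the group as a list of 37, of which 12 passed the filter. Against wild type, 2 of 12 fell and 0 rose in the Ndufa4 knockout, where 5.76% of all genes fell and 2.83% rose. The median was 0.02, against -0.08 over all genes. Ptafr, the receptor for platelet-activating factor, was at 26.5, 27.5 and 25.8 TPM in the Ndufa4 knockout, against 40.6, 40.9 and 41.0 TPM in wild type. The genotypes were far apart, with a log2 fold change of -0.60 ± 0.05 (limma adjusted p = 7.66e-04) that held in all 16 alternatives. S1pr1, a receptor for sphingosine 1-phosphate that guides exit from tissue, was at 4.87, 4.43 and 3.73 TPM in the Ndufa4 knockout, against 7.02, 6.28 and 6.31 TPM in wild type. The call of its difference, -0.50 ± 0.10 (limma adjusted p = 0.0207), was lost without any 1 wild-type library (adjusted p up to 0.0923). For the Ndufa4l3-miR147 knockout against wild type 0 of 12 were called by limma and 3 had an unadjusted p under 0.05, against 0.431% and 8.24% of all genes. The most abundant, P2ry6, a receptor for uridine diphosphate, was at 157 to 164 TPM there and at 161 to 168 TPM in wild type (-0.04 ± 0.04). Between the knockouts 2 of 12 were higher and 0 lower, against 2.2% and 1.04% of all genes. Ptafr was higher in the Ndufa4l3-miR147 knockout by 0.47 ± 0.05 (limma adjusted p = 0.00244), called in all 16 alternatives. S1pr1 was higher there by 0.54 ± 0.10 (limma adjusted p = 0.0267), a call lost without any 1 wild-type or Ndufa4l3-miR147 knockout library.

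**Figure D5:**
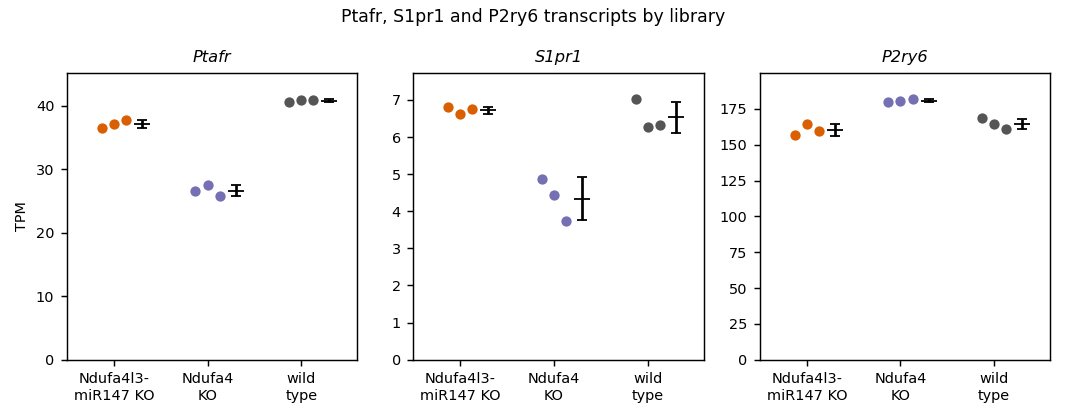
TPM of Ptafr, S1pr1 and P2ry6 (vertical axes from 0, each panel with its own scale) in the 3 libraries of each genotype (points), with mean and SD (bars). For Ptafr and S1pr1, the receptors called in the Ndufa4 knockout against wild type, the 3 points of that knockout lay below every point of the other genotypes.

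Ligands of the 9 receptors were set beside them as a list of 21, of which 14 passed the filter. The list was chosen with earlier results of these data known, so its shares are a description and not a test. Against wild type, 4 of 14 rose and 0 fell in the Ndufa4l3-miR147 knockout, where 0.243% of all genes rose and 0.189% fell. The median was 0.20, against 0.001 over all genes. Ccl4 rose by 0.58 ± 0.07 and the Ccr1 ligand Ccl9 by 0.41 ± 0.06, and the Ccr2 ligands Ccl7 and Ccl2 rose by 0.66 ± 0.09 and 0.35 ± 0.05 (limma adjusted p of 0.00904 to 0.0335). Each of these calls was lost without any 1 wild-type library, and without replicate 2 or 3 of this knockout (limma adjusted p up to 0.213). Ccl7 and Ccl2 were also lost without its replicate 1, and Ccl2 with median-of-ratios scaling. The receptor Ccr2 itself was not called, as given above.

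In the Ndufa4 knockout against wild type 3 of 14 ligands rose and 2 fell, against 2.83% and 5.76% of all genes, with a median of 0.18. Ccl4 rose by 0.32 ± 0.07, the Cxcr4 ligand Mif by 0.24 ± 0.06 and the Fpr2 ligand Anxa1 by 0.20 ± 0.04, while the Ccr1 ligands Ccl3 and Ccl9 fell, with log2 fold changes of -0.44 ± 0.10 and -0.23 ± 0.06 (limma adjusted p of 0.0233 to 0.0442). All 5 calls were lost without any 1 wild-type library (limma adjusted p up to 0.19). Anxa1 and Ccl9 were also lost without any 1 library of the other knockout, Mif without its replicate 2 or 3, and Ccl3 without its replicate 1. Leaving out Ndufa4 knockout replicate 2 ended the calls of Ccl3 and Ccl9, and leaving out its replicate 1 that of Ccl9. Ccl9 was called in 2 of 16 alternatives, neither of them a change of scaling. Between the knockouts 3 of 14 ligands were higher in the Ndufa4l3-miR147 knockout and 1 lower, against 2.2% and 1.04% of all genes, with a median of 0.25. Ccl9, with libraries of 73.2, 75.9 and 82.0 TPM for the Ndufa4l3-miR147 knockout, against 49.3, 48.8 and 48.9 TPM for the Ndufa4 knockout, differed by 0.64 ± 0.06 (limma adjusted p = 9.44e-04). Its call held in all 16 alternatives. Ccl3 was higher by 0.62 ± 0.10 and Ccl2 by 0.36 ± 0.05, calls lost without Ndufa4l3-miR147 knockout replicate 1, and without replicate 3 for Ccl3 or 2 for Ccl2. C3, the source of C3a, was lower, at -0.50 ± 0.11 (limma adjusted p = 0.0414). That call held in 5 of 16 alternatives and was lost on leaving out any 1 Ndufa4l3-miR147 knockout library, Ndufa4 knockout replicate 1 or 2, or wild-type replicate 2 or 3.

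Genes that carry the signal of these receptors were listed as 42, of which 39 passed the filter. Against wild type, 1 rose and 6 fell in the Ndufa4 knockout, where 2.83% of all genes rose and 5.76% fell. The median was -0.10, against -0.08 over all genes. Cd74, the surface receptor for Mif and also the invariant chain of MHC class II, rose by 0.43 ± 0.06 (limma adjusted p = 0.00421), which held in all 16 alternatives. The G protein gamma subunits Gng12 and Gng2 fell, with log2 fold changes of -0.41 ± 0.07 and -0.34 ± 0.06. Rgs18, which shortens G protein signals, fell by 0.56 ± 0.11, and Pik3r6, an adaptor of the G protein-driven PI3-kinase gamma, fell by 0.45 ± 0.09 (limma adjusted p of 0.0114 to 0.0178 for these 4). Gng2 and Rgs18 lost their calls without any 1 wild-type library, Gng12 without wild-type replicate 1 and Pik3r6 without wild-type replicate 1 or 3 (limma adjusted p up to 0.0839). Gng2 also lost its call with median-of-ratios scaling, and Pik3r6 with quantile normalization. The inhibitory G protein subunit Gnai2, the main one here at 1037 ± 118 TPM in the Ndufa4 knockout and 1109 ± 47.8 TPM in wild type, was not called (-0.10 ± 0.08).

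Against wild type, 1 of 39 rose and 0 fell in the Ndufa4l3-miR147 knockout, against 0.243% and 0.189% of all genes, with a median of -0.02. This was Rgs1, a regulator that curbs chemokine signals, at 579 ± 23.7 TPM in this knockout and 442 ± 11.7 TPM in wild type (0.39 ± 0.06, limma adjusted p = 0.0320). Leaving out any 1 of the 6 libraries compared ended this call (limma adjusted p up to 0.204). Between the knockouts 4 of 39 were higher in the Ndufa4l3-miR147 knockout and 1 lower, against 2.2% and 1.04% of all genes. The median was 0.08, against 0.07 over all genes. Rgs1 was higher by 0.55 ± 0.06 (limma adjusted p = 0.00215) and Cd74 lower, at -0.56 ± 0.06 (limma adjusted p = 0.00209), both called in all 16 alternatives. Rgs2, another regulator of this family, was higher by 0.42 ± 0.07 (limma adjusted p = 0.0124), a call that ended on leaving out any 1 Ndufa4l3-miR147 knockout library. Pik3r5 and Gng2 were higher by 0.27 ± 0.05 and 0.30 ± 0.06, calls lost with median-of-ratios scaling and without any 1 wild-type or Ndufa4l3-miR147 knockout library (limma adjusted p up to 0.166).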

How the data were processed

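Polyadenylated RNA was sequenced in 9 libraries, 3 per genotype. The authors deposited TPM in a single table of gene symbols. Per the submitters' processing notes kallisto was used and mm10 and GRCm39 were named as builds. Neither versions nor annotation are named there, and the role of each tool is not given. TPM of named genes summed to 913474 to 921678 per library, and 1 unnamed entry, which held up to 0.00277% of a library, was excluded. No 2 libraries held identical values.

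From these values log2(TPM + 1) was computed, and 11133 genes reached the minimum of 1 TPM in 3 or more of the 9 libraries. limma 3.58.1 in R 4.3.3 was fitted to all 9 libraries, with 1 mean per genotype, an intensity trend and two-sided tests. Calls required a p under 0.05 after Benjamini-Hochberg adjustment over these genes. The procedure was tested on simulated data. Positions come from GENCODE M21 on GRCm38, where 10654 genes kept had a single match, and 3 list genes were found by an older symbol. Members and lists were chosen with earlier results of these data known, so the shares called in them are not an independent test. Genes named besides the 9 receptors are up to 4 called members per direction of each list (the 2 most abundant where none was called, of which 1 is not reported here), the 3 profiles most like a called receptor, and called neighbours. Gnai2, Clec9a, Emr1, Lyz2, Mertk, Ly6g, Plac8, Col3a1, Dars, C5ar2, Gpr1, Cxcl12, Flt3, Zbtb46 and the Fpr paralogs were named after their values were seen. The alternatives were another pseudocount, no filter, other scalings, fewer libraries, no trend and a replicate block.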

Additional observations from a re-analysis of the deposited data

How the results depend on the processing

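Of 27 fold changes (9 receptors in 3 comparisons), 17 kept their direction and their side of the threshold in every alternative that gave a value. Fpr2 fell under the filter with median-of-ratios scaling and gave no value there. The causes of the changes below were not tested.

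The number of genes called was 956 in the Ndufa4 knockout against wild type, 361 between the knockouts and 48 in the Ndufa4l3-miR147 knockout against wild type. In fits of only the 6 libraries compared it was 238, 64 and 306. Without 1 library at a time it was 266 to 1586, 82 to 740 and 13 to 198, with the 3 highest counts without Ndufa4 knockout replicate 3. Without an intensity trend the last count was 30. The number of receptors called was 1, 1 and 0 in the same order. In the Ndufa4 knockout against wild type it was 2 with median-of-ratios scaling and 2 with quantile normalization. It was 2 in the fit of only the 6 libraries of the Ndufa4l3-miR147 knockout and wild type. Without 1 library at a time it was 1 to 2, 1 to 2 and 0 to 1.

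With the replicate number as a block, 162 genes were called between the knockouts and 24 in the Ndufa4l3-miR147 knockout against wild type. It changed no call of the 9 receptors. Among the genes named beside them, it ended the calls of Ccl2, Ccl7, Ccl9 and Rgs1 in the Ndufa4l3-miR147 knockout against wild type. In the Ndufa4 knockout against wild type it ended those of Anxa1, Ccl3, Ccl9, Ikbke, Mertk, Mif and Pik3r5 (-0.22, limma adjusted p = 0.0354). Between the knockouts it ended those of C3, Fam72a, Gng2, Pik3r5, S1pr1 and Zranb3. The fit without an intensity trend ended the same calls except those of Ccl3, Fam72a and S1pr1. The numbers do not pair the samples: same-numbered libraries correlated at -0.138 to 0.179 in their deviations from the genotype means, and 0 of 9 libraries correlated best with its own number in both other genotypes.

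Small differences changed sign. With median-of-ratios scaling these were C3ar1 in the Ndufa4 knockout against wild type (0.0692), and C5ar1 (-0.0217) and Ccr2 (-0.0345) between the knockouts, where Ccr2 was at -0.0826 with quantile normalization. Without 1 library at a time, C3ar1 (-0.0634 to 0.0625) and Cmklr1 (-0.0906 to 0.186) changed sign in the Ndufa4 knockout against wild type. So did Ccr2 between the knockouts (-0.197 to 0.202) and Cx3cr1 in the Ndufa4l3-miR147 knockout against wild type (-0.114 to 0.0515). Depth is unknown, so no limit from counting can be given. Fpr2 and Cx3cr1 had the lowest levels, but the SE was largest for Cmklr1 (0.20), Fpr2 (0.18) and Ccr2 (0.18).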
